A study of Mus musculus with 16 samples.

Results

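The MYC, MAX and MLX network was followed through 10 genes in the cardiac region of mouse embryos of 2 Greb1l lines. The members are Myc, Mycn, Mycl, Max, Mxd1, Mxd3, Mxd4, Mxi1, Mlx and Mlxipl, taken by gene symbol from both deposited tables, and they make up 10 of the 48526 genes listed in each table. All 10 passed the filter on low values in both lines. RNA sequencing was done on 16 libraries from embryos at E8.5 on the C57BL/6J strain, each from a heart region that had been dissected out and flash frozen. In line G3, 4 embryos labelled mutant carried the genotype Greb1lem1Cjean/em1Cjean and were set against 4 wild-type littermates. In line G17, 4 mutant embryos carried the genotype Greb1lex17/ex17 and were set against 4 wild-type littermates. No transgene, Cre driver or treatment is named in the labels, and the groups otherwise share strain, stage and tissue. The comparison asks how the level of each network gene in homozygous mutant cardiac tissue differs from that in wild-type littermates, and whether the lines differ in this.

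MYC, MYCN and MYCL are transcription factors of the basic helix-loop-helix leucine zipper family that bind E-box DNA as dimers with MAX and favour growth, ribosome production and cell cycling. The MXD proteins and MXI1 compete for MAX, recruit SIN3 corepressors to the same E-boxes and act against MYC. MLX is a parallel partner: it dimerises with MLXIPL (also called ChREBP) and with the product of Mlxip (MondoA), which sense glucose metabolites and drive glycolytic and lipogenic genes. In the embryonic heart, MYCN is known as a driver of cardiomyocyte proliferation, and loss of Mycn thins the ventricular wall.

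The E-box CACGTG, the core motif bound by dimers of this network, was searched for in the RefSeq promoters of the members (GRCm38.p6, 250 bases before to 50 after each annotated start). There were 12 promoters for 9 of the 10 members, and Myc had no entry. CACGTG reads the same on both strands, and it was found in 4 of the 12 promoters, those of Max, Mlx, Mxd4 and the upstream start of Mlxipl. Among all 32851 mouse promoters of this length, 7.15% held it. The motif began at position -3 relative to the start in Max, -40 in Mlx, -98 in Mlxipl and -219 in Mxd4. Promoters are shown for Mlxipl and Mxi1, the members that rose in both lines, and for Max, the shared partner, with CACGTG in capitals. The Mlxipl window is chr5:135089640-135089939 on the plus strand, the Max window is chr12:76962199-76962498 on the minus strand, and the Mxi1 window is chr19:53310256-53310555 on the plus strand. Of the 3, the Mxi1 window holds no CACGTG. A match is a description of these letters only.
Mlxipl: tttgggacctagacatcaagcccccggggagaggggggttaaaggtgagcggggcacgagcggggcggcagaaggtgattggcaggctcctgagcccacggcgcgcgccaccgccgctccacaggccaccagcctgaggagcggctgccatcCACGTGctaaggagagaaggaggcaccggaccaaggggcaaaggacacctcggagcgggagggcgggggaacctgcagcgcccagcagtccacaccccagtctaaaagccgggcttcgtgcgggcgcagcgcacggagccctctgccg
Max: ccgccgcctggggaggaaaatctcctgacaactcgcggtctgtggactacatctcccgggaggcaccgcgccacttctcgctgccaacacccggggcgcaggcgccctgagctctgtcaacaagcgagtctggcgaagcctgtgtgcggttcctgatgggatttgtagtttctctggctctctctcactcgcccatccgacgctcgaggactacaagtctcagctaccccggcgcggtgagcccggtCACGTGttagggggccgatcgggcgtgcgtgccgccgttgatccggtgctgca
Mxi1: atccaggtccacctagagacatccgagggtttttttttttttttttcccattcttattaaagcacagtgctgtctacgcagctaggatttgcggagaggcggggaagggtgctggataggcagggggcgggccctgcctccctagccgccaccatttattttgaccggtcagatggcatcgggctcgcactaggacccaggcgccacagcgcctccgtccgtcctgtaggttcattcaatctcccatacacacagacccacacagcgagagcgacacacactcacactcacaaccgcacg

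Between 32391421 and 49353025 reads per library were assigned to genes, and 18002 to 22689 genes were detected. Values below are normalized reads, meaning reads divided by the authors' size factor of the library; 3 reads correspond to 2.53 to 3.84 normalized reads. Greb1l, the targeted gene, averaged 4215 ± 961 normalized reads in G17 mutants and 9818 ± 508 in G17 controls (SD, n = 4 each). In G3 it averaged 20144 ± 3377 normalized reads in embryos labelled mutant and 10984 ± 1319 in controls, so that the transcript was higher where the labels give the mutation, and the G3 group is therefore called labelled mutant throughout. Cardiomyocyte markers were present in every library, and 0 of the 6 passed in either line by limma, edgeR or DESeq2, with 0 in G3 and 1 in G17 at an unadjusted p under 0.05. No 2 libraries of a line agreed within sampling noise. The labels do not tie an embryo to a litter or a processing batch, so p-values measure the spread between the embryos of a group as deposited. In bulk tissue, fewer cells of a type and less RNA per cell cannot be told apart.

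Per length of transcript, Mycn was the most abundant member in the controls of both lines and Mlxipl the least. In G3 controls the mean level in RPKM (reads scaled to exon length and library depth) ran from Mycn at 54.1 ± 4.77, Myc at 24.2 ± 6.84, Max at 23.2 ± 1.41 and Mycl at 15.1 ± 1.86 to Mlx at 10.04 ± 1.02 (SD, n = 4). Below these stood Mxd4 at 4.50 ± 0.63, Mxi1 at 3.23 ± 0.28, Mxd1 at 1.56 ± 0.44, Mxd3 at 1.24 ± 0.48 and Mlxipl at 0.182 ± 0.087 RPKM. G17 controls gave the same order. Within it, the embryos of Myc and Max overlapped in both lines, as did those of Mxd1 and Mxd3, and those of Mycl and Mlx overlapped in G17.

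**Figure D1:**
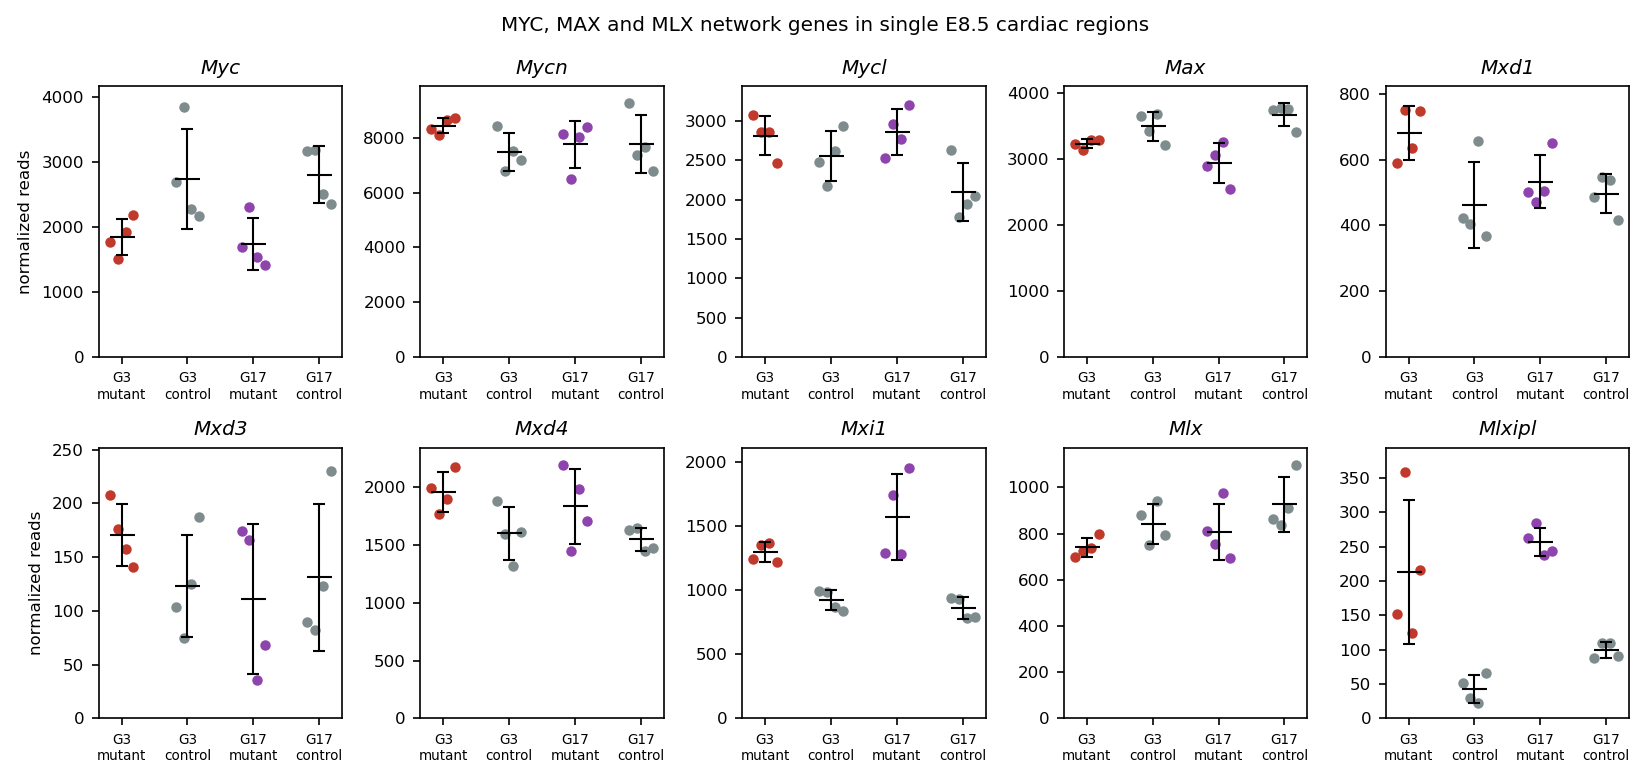
Normalized reads of the 10 network genes in each of the 16 embryos (points), by group, with the mean and SD of 4 embryos. Mxi1 and Mlxipl sit higher in every labelled mutant and mutant embryo than in any control of the same line, and Myc sits lower in every G17 mutant.

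Myc fell in G17 mutants, and its G3 values lay in the same direction without passing the test. Myc (ENSMUSG00000022346, chr15:61985391-61990374, plus strand, GRCm38) had 1689, 2311, 1534 and 1417 normalized reads in G17 mutants, against 3166, 3195, 2513 and 2356 in G17 controls. All 4 mutants were below all 4 controls, with a mean of 61.9% of the control mean. The limma log2 fold change was -0.70 (SE 0.15, adjusted p = 0.0284 over all genes). In G3, Myc had 1775, 1507, 1925 and 2179 normalized reads in embryos labelled mutant, against 2697, 3850, 2276 and 2165 in controls. Here the groups overlapped, since 1 control with 2165 was below the highest labelled mutant, and 1 control stood well above the rest with 3850. The mean was 67.2% of the control mean and the limma log2 fold change -0.55 (SE 0.16, adjusted p = 0.0839). DESeq2 on the recovered reads called it (adjusted p = 0.0107), and so did the authors' deposited table (adjusted p = 0.0402). In G3, DESeq2 called 1268 of the 18025 genes that passed the filter (7.03%). The authors' table called 916 of all 48526 genes listed (1.89%), so these 2 shares have unlike bases. With both lines in 1 fit, the common log2 fold change of Myc was -0.63 (SE 0.12, limma adjusted p = 0.00192). The G17 call was lost without mutant 33, 41 or 42 or without control 20 or 35, with limma adjusted p-values of 0.0543, 0.0907, 0.0981, 0.0558 and 0.0531 in that order.

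Mycn, the main MYC gene of this tissue by level, did not pass the test in either line. Mycn (ENSMUSG00000037169, chr12:12936093-12941914, minus strand) had 8309, 8111, 8631 and 8712 normalized reads in G3 embryos labelled mutant, against 8415, 6779, 7506 and 7195 in controls. The labelled mutants were tightly grouped and overlapped 1 control. The limma log2 fold change was 0.18 (SE 0.07, adjusted p = 0.165). In G17 the values were 8125, 6481, 8032 and 8406 normalized reads in mutants, against 9279, 7365, 7679 and 6787 in controls. These groups overlapped fully, with a 95% interval of the log2 difference from -0.23 to 0.23 (limma adjusted p = 0.999).

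Mycl did not pass the limma test on the 8 embryos of either line and rose when both lines were fitted together. Mycl (ENSMUSG00000028654, chr4:122995652-123002485, plus strand) had 2524, 2961, 2765 and 3208 normalized reads in G17 mutants, against 2626, 1785, 1943 and 2050 in controls. One control lay above the lowest mutant, and the limma log2 fold change was 0.46 (SE 0.12, adjusted p = 0.0727). It passed in G17 under DESeq2 (adjusted p = 0.0235), with limma on all 16 embryos in 1 fit (adjusted p = 0.0253) and with limma without control 20 (log2 fold change 0.57, adjusted p = 0.0145). It did not pass in the authors' deposited table (adjusted p = 0.0667). In G17, DESeq2 called 1072 of the 17706 genes that passed the filter (6.05%). The authors' table called 781 of all 48526 genes listed (1.61%). In G3, Mycl had 3076, 2859, 2857 and 2470 normalized reads in embryos labelled mutant, against 2485, 2176, 2614 and 2940 in controls. These groups overlapped (limma log2 fold change 0.14, SE 0.10, adjusted p = 0.487). The common log2 fold change was 0.30 (SE 0.09, limma adjusted p = 0.0307), a call that was lost in 8 of the 16 fits that leave out 1 embryo, with adjusted p-values of 0.0515 to 0.0684.

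Max, the obligate partner of the MYC and MXD proteins, was lower when both lines were fitted as 1 set. Max (ENSMUSG00000059436, chr12:76937269-76962201, minus strand) had 2890, 3064, 3249 and 2538 normalized reads in G17 mutants, against 3744, 3775, 3752 and 3412 in controls. All 4 mutants were below all 4 controls, at 80.0% of the control mean, and the limma log2 fold change of -0.33 (SE 0.09) did not pass the test within the line (adjusted p = 0.0816). It passed in G17 under DESeq2 (adjusted p = 0.0261) and with limma on all 16 embryos in 1 fit (adjusted p = 0.0152). The authors' deposited table did not call it in G17 (adjusted p = 0.0648). In G3, Max had 3223, 3132, 3281 and 3289 normalized reads in embryos labelled mutant, against 3650, 3428, 3681 and 3210 in controls. One control was as low as the labelled mutants, and the limma log2 fold change was -0.11 (SE 0.07, adjusted p = 0.434). The common log2 fold change was -0.22 (SE 0.06, limma adjusted p = 0.0184), and it passed in all 16 fits that leave out 1 embryo.

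Mxi1, an antagonist that takes MAX from MYC, rose in both lines. Mxi1 (ENSMUSG00000025025, chr19:53310518-53375810, plus strand) had 1243, 1357, 1372 and 1219 normalized reads in G3 embryos labelled mutant, against 994, 988, 871 and 839 in controls. In G17 it had 1295, 1746, 1282 and 1956 normalized reads in mutants, against 943, 932, 787 and 789 in controls. The groups did not overlap in either line. The G17 mutants fell into a lower and a higher pair of embryos, whereas the G3 labelled mutants lay close together. The mean was 141% of the control mean in G3 and 182% in G17. The limma log2 fold change was 0.49 (SE 0.11, adjusted p = 0.0212) in G3 and 0.84 (SE 0.16, adjusted p = 0.0130) in G17. With both lines fitted together it was 0.67 (SE 0.10, limma adjusted p = 0.000164). The G3 call was lost without labelled mutant 29 or 30 or control 20 or 21, with limma adjusted p-values of 0.0797, 0.0677, 0.0547 and 0.0596 in that order. The G17 call was lost without mutant 36 (limma adjusted p = 0.0523).

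The 3 MXD genes, which encode antagonists of the same kind, did not pass the test in any fit of the main analysis. Mxd1 (chr6:86647042-86669161, minus strand) had 589, 752, 634 and 750 normalized reads in G3 embryos labelled mutant, against 421, 404, 656 and 369 in controls. A single control, number 20, reached the labelled mutants; the limma log2 fold change was 0.59 (SE 0.19, adjusted p = 0.113), and without that control the adjusted p was 0.0299. In G17, Mxd1 had 503, 471, 506 and 651 normalized reads in mutants, against 485, 548, 538 and 416 in controls, groups that overlapped (limma log2 fold change 0.10, SE 0.18, adjusted p = 0.854). Mxd4 (chr5:34173883-34187720, minus strand) was the most abundant of the MXD genes and Mxi1 per length in controls. It had 1992, 1770, 1899 and 2178 normalized reads in G3 embryos labelled mutant, against 1878, 1595, 1313 and 1608 in controls. In G17 it had 2187, 1451, 1985 and 1708 normalized reads in mutants, against 1625, 1646, 1446 and 1471 in controls. Groups overlapped in both lines, and the common log2 fold change of Mxd4 was 0.27 (SE 0.09, limma adjusted p = 0.0535; DESeq2 adjusted p = 0.0284). Mxd3 (chr13:55325168-55329823, minus strand) was low and varied most, with 208, 176, 158 and 141 normalized reads in G3 embryos labelled mutant, against 104, 75.2, 125 and 188 in controls. In G17 it had 175, 166, 36.04 and 68.2 normalized reads in mutants, against 89.2, 82.3, 123 and 230 in controls. Mxd3 exons overlap Prelid1 on the opposite strand, a gene that averaged 12226 normalized reads in G3 embryos labelled mutant and 12541 in G3 controls, and the labels do not say whether counting used strand, so the Mxd3 values are uncertain.

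Mlxipl, the glucose-responsive partner of MLX, showed the largest fold change of the 10 members in both lines. Mlxipl (ENSMUSG00000005373, chr5:135089890-135138382, plus strand) had 153, 359, 124 and 217 normalized reads in G3 embryos labelled mutant, against 50.9, 29.6, 22.3 and 66.6 in controls. In G17 it had 263, 284, 239 and 244 normalized reads in mutants, against 88.1, 109, 110 and 90.2 in controls. In each line every control was below every labelled mutant or mutant, and the G3 labelled mutants were much more spread out than the G17 mutants. The mean was 5.03-fold the control mean in G3 and 2.59-fold in G17. The limma log2 fold change was 2.31 (SE 0.47, adjusted p = 0.0152) in G3 and 1.37 (SE 0.30, adjusted p = 0.0272) in G17. The common log2 fold change was 1.84 (SE 0.29, limma adjusted p = 0.00023). These are low counts, of 97 to 328 reads in labelled mutants and 21 to 71 in controls of G3. Without labelled mutant 29, which held the 359, the G3 log2 fold change was 2.02 (limma adjusted p = 0.0741). The G17 call was lost without mutant 33, 36, 41 or 42 or control 35 or 37, with limma adjusted p-values of 0.0588, 0.0838, 0.064, 0.0622, 0.0591 and 0.0534 in that order.

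Mlx itself, the shared partner of this arm, did not pass the test. Mlx (ENSMUSG00000017801, chr11:101087277-101092207, plus strand) had 700, 723, 738 and 798 normalized reads in G3 embryos labelled mutant, against 878, 748, 943 and 793 in controls. In G17 it had 809, 754, 975 and 693 normalized reads in mutants, against 863, 835, 909 and 1096 in controls. The groups overlapped in both lines, with limma log2 fold changes of -0.18 (SE 0.12, adjusted p = 0.485) in G3 and -0.20 (SE 0.15, adjusted p = 0.585) in G17. Mlx exons overlap Psmc3ip on the opposite strand, a gene at a like number of reads, so its values are uncertain in the same way as those of Mxd3.

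**Figure D2:**
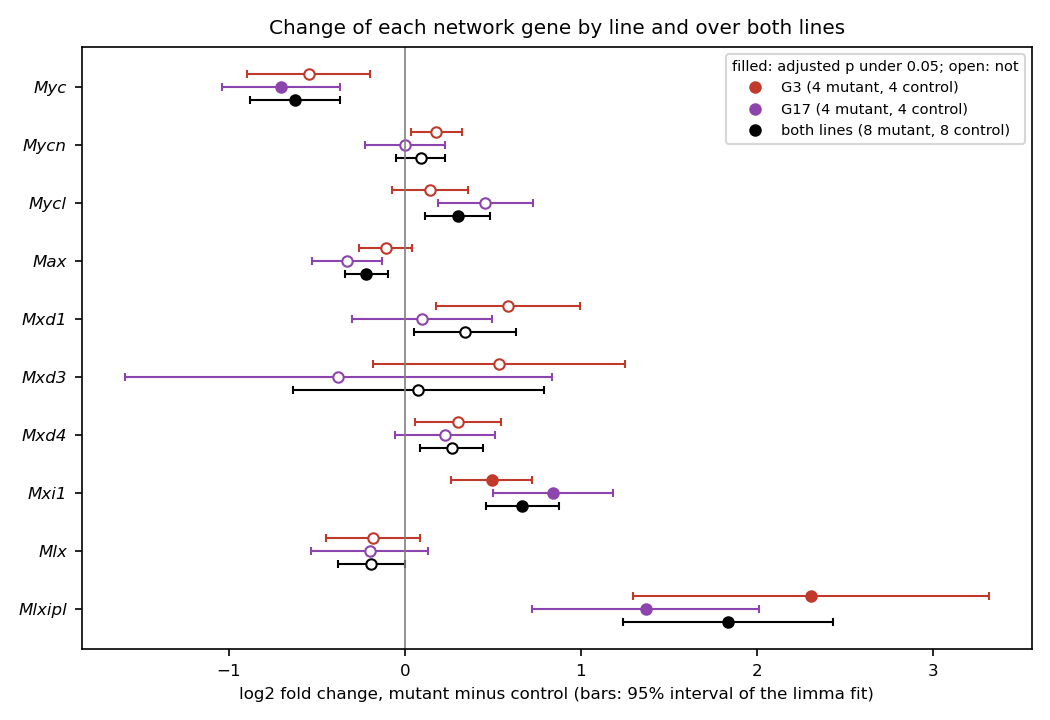
Log2 fold change of each network gene, labelled mutant or mutant over control, with its 95% interval, in G3, in G17 and with both lines fitted together; filled symbols have an adjusted p under 0.05. Mxi1 and Mlxipl are filled and to the right of 0 in all 3 fits, and Myc is filled and to the left in G17 and in the fit of both lines.

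In G3, 2 of the 10 members rose and 0 fell, where 2.35% and 1.63% of the 18025 genes tested did so and 3.98% passed in either direction. In G17, 2 rose and 1 fell, where 1.87% and 1.16% of the 17706 genes tested did so and 3.03% passed in either direction. Mxi1 and Mlxipl were the 2 that rose in both lines, and 1.39% of genes passed in the same direction in both. The median log2 fold change of the 10 members was 0.24 in G3 and 0.05 in G17, against 0.01 and -0.01 over all genes tested in the same lines. Groups did not overlap for 2 members in G3 and 4 in G17, where this was so for 11.5% and 9.93% of all genes. With both lines in 1 fit, 3 members (Mycl, Mxi1 and Mlxipl) rose and 2 (Myc and Max) fell, where 5.87% and 5.3% of 17108 genes did so and 11.2% passed in either direction. The difference between the lines was called for 0 of 10 members by limma, with 0 at an unadjusted p under 0.05 and 0 by edgeR and DESeq2; 0.0117% of all genes were called in that test. Its estimate for Mlxipl, G3 minus G17, was a log2 difference of 0.94 with a 95% interval from -0.20 to 2.08.

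Within the MYC family, the share contributed by Myc was smaller in mutants while that of Mycn stayed the largest. Of the summed RPKM of Myc, Mycn and Mycl, Myc made up 17.2 ± 2.04% in G3 embryos labelled mutant and 25.7 ± 6.46% in controls, and 17.4 ± 4.58% in G17 mutants and 26.4 ± 2.74% in controls (SD, n = 4 each). Mycn made up 65.1 ± 0.84% in G3 embryos labelled mutant and 58.0 ± 4.62% in controls, and 63.5 ± 5.39% in G17 mutants and 60.3 ± 1.81% in controls. The sum itself was 95.3 ± 3.45 RPKM in G3 embryos labelled mutant and 93.4 ± 4.89 in controls, and 89.6 ± 3.05 in G17 mutants and 92.3 ± 12.1 in controls, differences smaller than the SD of at least 1 group in each line. The antagonist genes Mxd1, Mxd3, Mxd4 and Mxi1 summed to 14.3 ± 0.20 RPKM in G3 embryos labelled mutant and 10.5 ± 0.47 in controls, and to 13.7 ± 1.08 in G17 mutants and 10.2 ± 0.32 in controls. Their ratio to the MYC family was 0.144 to 0.158 in G3 embryos labelled mutant and 0.105 to 0.120 in controls, and 0.138 to 0.160 in G17 mutants and 0.0941 to 0.130 in controls. The ratio of Myc to Mxi1 was 2.79 to 4.49 in G3 embryos labelled mutant and 6.48 to 9.79 in controls, and 1.82 to 3.32 in G17 mutants and 7.50 to 8.61 in controls. Neither ratio overlapped between groups in either line. Both ratios hold Mxi1, already called in each line, so they are not a separate result. In G17, Mxi1 averaged 5.56 RPKM in mutants and 2.98 in controls, and Mxd4 5.22 and 4.30. Mxd1 averaged 1.82 and 1.66 there, and Mxd3, whose values are uncertain, 1.14 and 1.31. Among single genes, groups did not overlap for 11.5% in G3 and 9.93% in G17. That share was not computed for ratios. Mnt and Mga, counted below among the partners, were not in the sum of antagonist genes, and neither passed the limma test in either line. Mnt averaged 2290 normalized reads in G3 embryos labelled mutant and 2069 in controls, and 2437 in G17 mutants and 2342 in controls. Mga averaged 8730 in G3 embryos labelled mutant and 8335 in controls, and 8964 in G17 mutants and 8517 in controls. Mlxipl stood at 10.4 ± 5.23% of the level of Mlx in G3 embryos labelled mutant and 1.85 ± 0.94% in controls, and at 11.7 ± 2.06% in G17 mutants and 3.93 ± 0.77% in controls. These combined measures were chosen with the single genes known and carry no test.

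**Figure D3:**
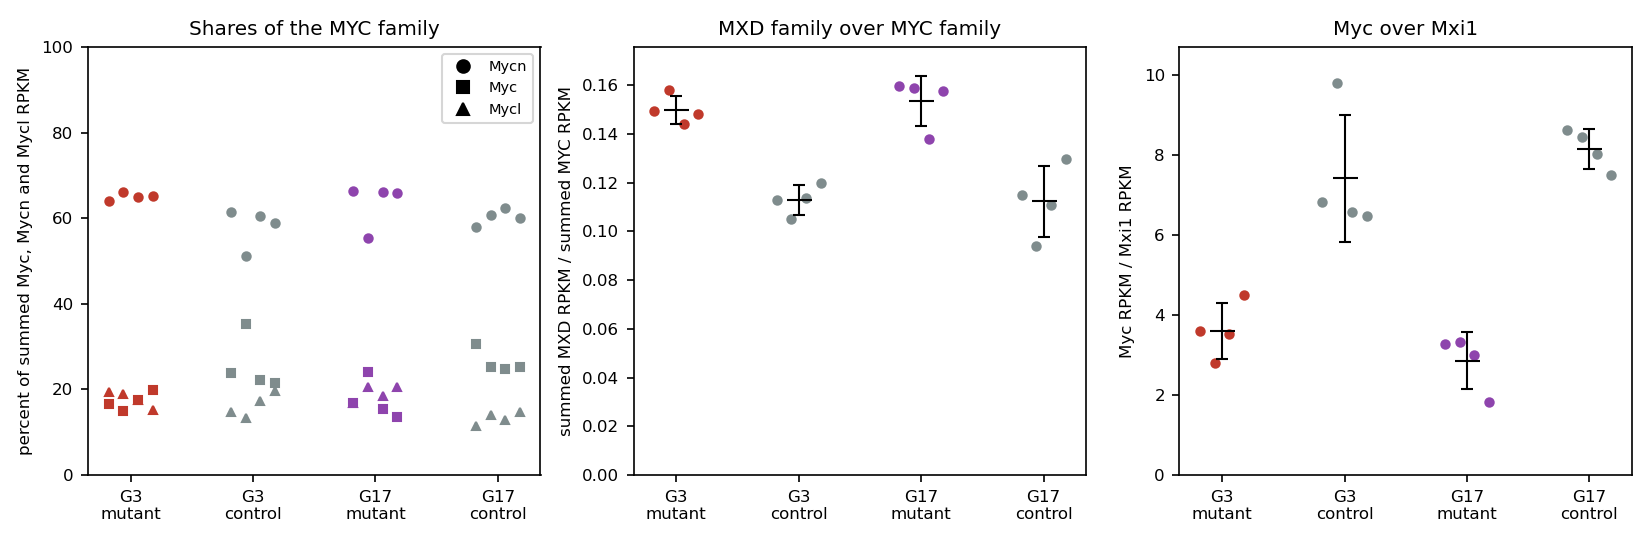
Shares of the MYC family by gene, the ratio of summed Mxd1, Mxd3, Mxd4 and Mxi1 to the MYC family and the ratio of Myc to Mxi1, each from RPKM and per embryo, by group. Mnt and Mga are not in the sum, and both ratios hold Mxi1. Every labelled mutant and mutant has a higher ratio of this sum and a lower ratio of Myc to Mxi1 than any control of its line.

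No gene that works with the network passed the test within a line. Of 36 partners, cofactors, corepressors and turnover genes, 0 passed in G3 and 0 in G17 by limma, edgeR and DESeq2, with 5 in G3 and 6 in G17 at an unadjusted p under 0.05; edgeR called 3.37% of all genes in G3 and 2.69% in G17. Their median log2 fold change was -0.03 in G3 and 0.01 in G17. With both lines in 1 fit, 3 of the 36 passed by limma, where 11.2% of all genes did so, and these are named after their values were seen. Mlxip, the MondoA gene, rose by a log2 fold change of 0.20 (SE 0.06, adjusted p = 0.0328), and Trrap, a scaffold of histone acetyltransferase complexes that MYC recruits, by 0.14 (adjusted p = 0.0483). Usp36, a nucleolar deubiquitinase that stabilises MYC protein, fell by 0.18 on the log2 scale (adjusted p = 0.0359). Mlxip averaged 5264 ± 313 normalized reads in G3 embryos labelled mutant and 4660 ± 296 in controls, and 5301 ± 710 in G17 mutants and 4524 ± 320 in controls (SD, n = 4 each).

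More of the genes known to be activated by MYC fell than rose, in both lines. In G3, 13 of the 36 fell and 1 rose, with a median log2 fold change of -0.19; in G17, 4 fell and 1 rose, with a median of -0.15. Over all genes, 1.63% fell and 2.35% rose in G3, and 1.16% fell and 1.87% rose in G17. With both lines in 1 fit, 18 fell and 2 rose, where 5.3% and 5.87% of all genes did so. Ncl, the nucleolar protein nucleolin, fell to 98154 ± 1982 normalized reads in G3 embryos labelled mutant, against 127271 ± 4913 in controls (limma log2 fold change -0.37, adjusted p = 9.5e-05). It also fell in G17 (log2 fold change -0.28, limma adjusted p = 0.038). Odc1, the first enzyme of polyamine synthesis, averaged 23461 ± 1570 in G3 embryos labelled mutant and 30257 ± 234 in controls, and 22482 ± 1877 in G17 mutants and 27927 ± 739 in controls. Its log2 fold changes were -0.37 in G3 and -0.32 in G17 (limma adjusted p = 0.001 and 0.0191). Srm, spermidine synthase of the same pathway, averaged 5250 ± 659 in G17 mutants and 7621 ± 513 in controls (log2 fold change -0.54, limma adjusted p = 0.00768) and fell in G3 too, by 0.51 on the log2 scale. Odc1, Ncl and Srm were the 3 that fell in both lines.

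The other named members of this list passed the limma test in 1 line, and their estimates in the other line had the same sign. The difference between lines was called for 0 of the 36 genes by limma, edgeR and DESeq2, with 5 at an unadjusted p under 0.05 by limma. In G3, Pa2g4, a growth-regulated nucleolar protein, fell by 0.36 and Gnl3, nucleostemin, by 0.42 on the log2 scale (limma adjusted p = 0.000278 and 0.000617). Their G17 log2 fold changes were -0.18 and -0.21 (limma adjusted p = 0.272 and 0.184). In G17, Bop1, a ribosome assembly factor, fell by 0.45 on the log2 scale (limma adjusted p = 0.0142). Its G3 log2 fold change was -0.28 (limma adjusted p = 0.0561), and the authors' deposited table called it in G3 (adjusted p = 0.0364). Members that rose were Tfrc and Tert. Tfrc, the transferrin receptor, averaged 9173 ± 374 normalized reads in G17 mutants and 6585 ± 901 in controls (limma log2 fold change 0.49, adjusted p = 0.0143). In G3 its log2 fold change was 0.20 (limma adjusted p = 0.0783). Tert, the telomerase catalytic subunit, averaged 733 ± 33.1 in G3 embryos labelled mutant and 443 ± 103 in controls (limma log2 fold change 0.76, adjusted p = 0.0361), and it is named after its value was seen. In G17 the log2 fold change of Tert was 0.60 (limma adjusted p = 0.0894). The G17 count of 5 for the list became 9 under DESeq2 and 8 with all 16 embryos sharing 1 estimate of spread. It became 3 without mutant 36 or control 35, and 1 without mutant 42.

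Of 9 genes known to be repressed by MYC, 8 were measured well enough to test, and 2 rose and 0 fell in each line by limma, at a median log2 fold change of 0.33 in G3 and 0.30 in G17. Over all genes, 2.35% rose and 1.63% fell in G3, and 1.87% rose and 1.16% fell in G17. The medians over all genes were 0.01 in G3 and -0.01 in G17. With both lines in 1 fit, 3 rose and 2 fell, where 5.87% and 5.3% of all genes did so. Ndrg2, a differentiation-associated gene, rose in both lines and averaged 676 ± 139 normalized reads in G3 embryos labelled mutant and 155 ± 51.4 in controls, and 946 ± 177 in G17 mutants and 177 ± 39.6 in controls (SD, n = 4 each). Its limma log2 fold changes were 2.16 (adjusted p = 0.000601) and 2.42 (adjusted p = 0.000181) in G3 and G17. Cdkn1b, the cell cycle inhibitor p27, averaged 2379 ± 227 in G3 embryos labelled mutant and 1589 ± 170 in controls (limma log2 fold change 0.58, adjusted p = 0.0072). In G17 its log2 fold change was 0.50 (limma adjusted p = 0.0898). Cebpa, a differentiation factor, averaged 234 ± 54.1 in G17 mutants and 13.1 ± 11.4 in controls (limma adjusted p = 0.0143). In G3 it averaged 128 ± 33.7 in embryos labelled mutant and 26.1 ± 36.6 in controls (limma adjusted p = 0.076). The 2 that fell in the fit of both lines, named after their values were seen, were Gadd45a, a stress-induced growth arrest gene (limma log2 fold change -0.66, adjusted p = 0.0141), and Ndrg1, a stress-responsive relative of Ndrg2 (-0.95, adjusted p = 0.0195). Gadd45a averaged 289 ± 70.4 in G17 mutants and 546 ± 86.6 in controls, and Ndrg1 averaged 289 ± 82.0 in G17 mutants and 729 ± 520 in controls, with every mutant below every control for both genes. Groups did not overlap, in either direction, for 9.93% of all genes in G17. In G3 the groups overlapped for both: Gadd45a averaged 348 ± 73.5 in embryos labelled mutant and 451 ± 87.5 in controls, and Ndrg1 296 ± 76.5 and 519 ± 239. In G17, DESeq2 called 3 of the list higher and 2 lower, the authors' deposited table called 2 higher and 2 lower, and limma called 1 without mutant 41 or 42.

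Targets of the MLX arm moved in both directions. Of 21 listed, 18 were tested; 1 rose and 0 fell in G3, and 1 rose and 3 fell in G17, at median log2 fold changes of 0.09 and 0.08. Over all genes, 2.35% rose and 1.63% fell in G3, and 1.87% rose and 1.16% fell in G17. With both lines in 1 fit, 3 of the 18 rose and 4 fell, where 5.87% and 5.3% of all genes did so. Elovl6, a fatty acid elongase, was the one that rose in both lines, averaging 5521 ± 598 normalized reads in G3 embryos labelled mutant and 4367 ± 413 in controls, and 6204 ± 455 in G17 mutants and 3384 ± 823 in controls. Its limma log2 fold changes were 0.34 (adjusted p = 0.0494) in G3 and 0.91 (adjusted p = 0.00825) in G17, and the G3 call was lost when any of labelled mutants 23, 29 and 31 or controls 16, 20 and 21 was left out. Slc2a2, a glucose transporter of liver and yolk sac, averaged 250 ± 277 in G17 mutants and 1953 ± 1111 in controls (limma adjusted p = 0.0191), with overlapping embryos. Klf10, a zinc finger repressor, averaged 722 ± 87.0 in G17 mutants and 1095 ± 83.3 in controls (limma adjusted p = 0.0365). Txnip, a widely used readout of MondoA and MLXIPL named here after its values were seen, averaged 1266 ± 110 in G17 mutants and 709 ± 305 in controls without passing the test (limma adjusted p = 0.0818). In G3 it did not pass either (limma adjusted p = 0.172), and it rose with both lines in 1 fit (log2 fold change 0.74, limma adjusted p = 0.0118). Pklr and Arrdc4 are likewise named after their values were seen. Pklr averaged 36.9 ± 30.2 in G17 mutants and 221 ± 187 in controls. Its G3 means were 32.8 ± 15.4 in embryos labelled mutant and 84.9 ± 31.6 in controls. Pklr passed in neither line and fell with both lines in 1 fit (log2 fold change -2.34, limma adjusted p = 0.0348). Arrdc4 did not pass in that fit (limma adjusted p = 0.31). The G17 count of 4 became 1 without mutant 41 or 42 or control 35 or 37, and 2 without mutant 36.

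**Figure D4:**
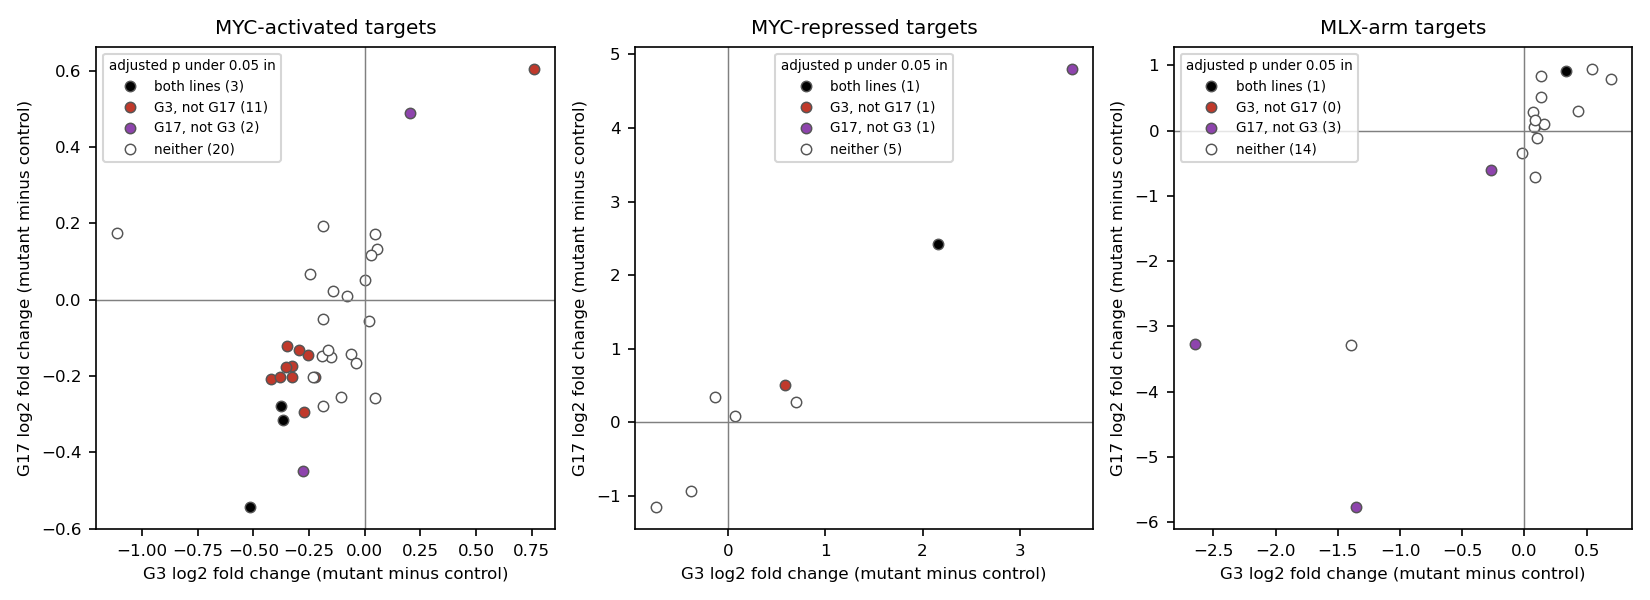
Log2 fold change in G3 (labelled mutant over control) against that in G17 (mutant over control) for the MYC-activated, MYC-repressed and MLX-arm target genes tested in both lines, coloured by the line or lines in which the gene passed the test. Most MYC-activated genes lie below 0 on both axes, and the 3 called in both lines are lower in both.

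Markers of other cell types differed between the same groups, and their counts stand beside a background of 2.35% of all genes higher and 1.63% lower in G3, and 1.87% higher and 1.16% lower in G17. Yolk sac markers summed to 5643 to 26537 normalized reads in G3 embryos labelled mutant and 21672 to 82787 in controls, and to 8517 to 45704 in G17 mutants and 30960 to 235506 in controls; 0 of the 7 tested passed in G3 by limma, edgeR and DESeq2 (5 at an unadjusted p under 0.05), 5 fell in G17 by limma and DESeq2, 2 by edgeR and 0 in the authors' deposited table, and Alb was at 0 in every library. Early embryo markers summed to 3524 to 4809 in G3 embryos labelled mutant and 1857 to 2340 in controls, and to 3594 to 7152 in G17 mutants and 627 to 1956 in controls, with 3 of 5 higher in G3 and 2 of 5 in G17. Foregut endoderm markers summed to 23898 to 26342 in G3 embryos labelled mutant and 18083 to 29959 in controls, and to 19349 to 30086 in G17 mutants and 21584 to 47372 in controls; of 9, 3 rose in G3, and 1 rose and 2 fell in G17. Neural crest markers summed to 1923 to 2876 in G3 embryos labelled mutant and 2528 to 3605 in controls, and to 2195 to 3198 in G17 mutants and 2713 to 4007 in controls. Of these, Sox10 and Foxd3 fell in G3 by limma, and Foxd3 was at 0 in every G17 mutant and averaged 183 ± 188 normalized reads in G17 controls. Somite markers summed to 5364 to 7555 in G3 embryos labelled mutant and 7613 to 9174 in controls, and to 4857 to 6776 in G17 mutants and 5437 to 10189 in controls. Tcf15 was the only 1 of 4 tested that passed in either line by limma, and it fell in both. In each line 3 log2 fold changes were negative and 1, that of Tbx18, was positive. Tbx18 averaged 468 ± 63.1 in G17 mutants and 297 ± 43.5 in controls (log2 fold change 0.65, limma adjusted p = 0.13). Neural tube markers summed to 8909 to 11738 in G3 embryos labelled mutant and 8546 to 9723 in controls, and to 8583 to 11185 in G17 mutants and 6647 to 9839 in controls. Sox1 rose in both lines and was the only one that passed in either by limma. Of 6 tested in G3, 4 log2 fold changes were positive and 2 negative. Of 7 tested in G17, 4 were positive and 3 negative, among them Pax6 (-0.40, limma adjusted p = 0.171). Of 6 endothelial markers, Plvap fell in G3. With both lines in 1 fit, 7 of 7 yolk sac markers tested fell and 4 of 5 early embryo markers rose by limma. In that fit, 5.3% of all genes fell and 5.87% rose. Foregut endoderm gave 1 higher and 2 lower, neural tube 2 higher, neural crest 2 lower, and endothelium and somite 1 lower each. Primitive erythrocyte and surface ectoderm markers gave 0 by limma in that fit and in either line. At an unadjusted p under 0.05 by limma were 3 of 5 erythrocyte markers in G3 and 0 of 6 in G17. For surface ectoderm these were 1 of 6 in G3 and 4 of 6 in G17. DESeq2 called 1 surface ectoderm marker higher in each line, and the authors' deposited table called 1 higher in G17. With limma on all 16 embryos in 1 fit, 1 surface ectoderm marker was lower in G17. The single markers above are named after their values were seen. Cardiomyocyte markers summed to 144549 to 182905 in G3 embryos labelled mutant and 135664 to 205588 in controls, and to 136754 to 198728 in G17 mutants and 107325 to 186895 in controls. The part of these shifts in the Myc, Mxi1, Mlxipl and target gene results was not tested.

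For the members that passed in at least 1 line, the genes with the most similar pattern were ranked by Pearson's r over 16 embryos, on log2 values centred on each line's mean, among 17107 genes. The embryos of a group share genotype, so any gene that differs between groups scores high, and the values are a description. For Myc they were Slmap (r = 0.903), Kmt5a (r = 0.897) and Plaur (r = 0.867). For Mxi1 they were BC037032 (r = 0.919), Zmym3 (r = 0.915) and Asap1 (r = 0.914). For Mlxipl they included Alx4 (r = 0.934) and Prkar2a (r = 0.929), which both passed the test and rose in both lines.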

How the data were processed

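RNA was sequenced from 16 embryos, 4 per group, and reads were aligned and counted with HISAT2 and featureCounts (Subread) on GRCm38 and normalized with DESeq2, per the submitters' processing notes. No source used here gives their versions or strand setting. The deposited values are a signal, reads divided by a DESeq2 size factor, in 1 table per line; multiplied back, 99.967 to 100% of values came out within 0.01 of a whole read. The deposited p-values of the authors' own comparison in each table served as an alternative. Values were tested as log2(value + 1) with limma-trend (limma 3.58.1, R 4.3.3) among genes with at least 10 normalized reads in at least 4 embryos, each line on its own 8 embryos, with Benjamini-Hochberg adjustment over all genes tested and a threshold of 0.05. A fold change on this scale understates the change of low genes. The common effect came from a fit of 16 embryos with line as a term. The difference between lines came from a separate fit that added a line by genotype term. The setting called all 16 embryos in 1 fit compared mutants and controls within each line, with 1 estimate of spread over all groups. Alternatives were edgeR 4.0.16 quasi-likelihood and DESeq2 1.42.0 on the recovered reads, other filters, pseudocounts and scaling, and leaving out each embryo. RPKM used recovered reads and summed exon lengths from GENCODE M21. The fit was tested on simulated data. The members, the gene lists and the tests were chosen with earlier results of these data known. Named besides the members are up to 4 genes per list and line with the smallest p among those past the threshold, and the 3 genes most like each member that passed; others are said to be named after their values were seen. Some genes that meet this rule are not reported here.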

Additional observations from a re-analysis of the deposited data

Results flagged for a closer look

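In each of the 40 combinations of member and group, the highest or lowest embryo was set against the range of its group by Dixon's criterion, which flags about 5% of groups by chance. One value stood apart. Max in G17 controls was lowest in embryo 37, at 3412 normalized reads, while the other 3 controls lay between 3744 and 3775; the gap was 0.915 of the whole range. Without that embryo the G17 log2 fold change of Max was -0.36 (limma adjusted p = 0.108).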

How the results depend on the processing

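No analysis paired by litter was possible because the labels do not give the litter of an embryo. TMM scaling and a pseudocount of 5 moved none of the 12 counts of changed genes by over 1.5 times. Under DESeq2, the G17 counts were 5 members (3 in the main analysis), 9 MYC-activated genes (5) and 5 MYC-repressed genes (2). With all 16 embryos in 1 fit they were 5 members, 8 MYC-activated and 4 MYC-repressed genes, and 2 partner genes (0), while MLX-arm targets in G3 were 0 (1). That last count was also 0 with no filter, with a pseudocount of 0.1 and under edgeR. The count of MYC-repressed genes in G17 was 1 with a pseudocount of 0.1 and 4 in the authors' deposited table. With a mean of at least 5 CPM required, Mlxipl and Mxd3 were not tested in either line or in the fits of both lines. In G3, 1 member then passed. The log2 fold change of Mycn in G17 turned to 0.00095 under edgeR. The causes of the other shifts were not tested.

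Leaving out each embryo in turn gave 0 to 2 members in G3, 1 to 3 in G17, 4 to 6 for both lines together and 0 to 0 for the difference between lines. G3 gave 0 members without labelled mutant 29 and 1 without labelled mutant 30 or control 21; G17 gave 1 without mutant 33, 36, 41 or 42 or control 35. Partner genes stayed at 0 in both lines, MYC-activated genes ran from 10 to 15 in G3 and 1 to 7 in G17, MYC-repressed genes from 2 to 3 and 1 to 2, and MLX-arm targets from 0 to 1 and 1 to 5. Some log2 fold changes turned sign in these fits. Those in G17 ran from -0.0629 to 0.0875 for Mycn, -0.0021 to 0.153 for Mxd1 and -0.685 to 0.0641 for Mxd3. The common effect of Mxd3 ran from -0.0545 to 0.316, and the difference between lines from -0.0354 to 0.162 for Mxd4 and -0.0637 to 0.114 for Mlx. Mlxipl and Mxd3 rest on the fewest reads of the 10 members, and 4 embryos a group limit every test; the smallest exact permutation p that 4 against 4 can give is 0.0286.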

Other observations

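The control embryos of the lines did not overlap in Mlxipl, the member at the lowest level per length, and overlapped in every other member. Mlxipl was picked after its values were seen, its G3 control values rest on 21 to 71 reads, and the share of all genes that separate in this way was not computed. Controls had 0.096 to 0.288 RPKM in G3 and 0.377 to 0.469 in G17, ranges that did not overlap, while embryos labelled mutant in G3 had 0.541 to 1.57 RPKM and G17 mutants 1.04 to 1.24. The lines were deposited as separate tables, and this difference was not tested.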
